A study of Mustela putorius furo with 2 samples.

Results

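The set described here holds 6 genes of fatty acid and acyl-CoA handling: the fatty acid binding proteins FABP5 and FABP7, the acyl-CoA binding proteins DBI and ACBD7, and the long-chain acyl-CoA synthetases ACSL3 and ACSL6. They are 6 of the 21317 gene names with a UMI in single-cell RNA sequencing of dorsal cortex from wild-type (WT) ferret pups at postnatal day 3 (P3), and all 6 were measured. They were picked by name for their levels across classes of cells in these same libraries, so those levels are a description here and carry no test. The study made 2 replicates of this single group, with no other genotype, age or treatment. Tissue was dissociated with papain, captured on the 10x Chromium droplet platform and sequenced on an Illumina HiSeq. The labels do not say whether the replicates came from separate animals or pools of animals, nor which barcode suffix belongs to which replicate, so the suffixes are called library A and library B.

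Long-chain fatty acids dissolve poorly in water and move inside cells on small carrier proteins. FABP7, also called brain lipid-binding protein, is a classical marker of radial glia and favours long polyunsaturated fatty acids, and FABP5 is its close relative with a wider tissue range. Acyl-CoA synthetases of the ACSL family join a fatty acid to coenzyme A, which commits it to membrane lipid synthesis, storage or oxidation. DBI, the diazepam binding inhibitor or acyl-CoA binding protein, holds the resulting acyl-CoA in the cytosol, and peptides cut from it also act outside the cell on the GABA-A receptor. ACBD7 is a small protein with the same acyl-CoA binding domain.

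Library A held 9782 cells and 41836475 UMIs, and library B held 5005 cells and 18907140 UMIs. The libraries shared 21 barcode sequences. Cells were put in classes by raw UMIs of marker genes, and 13 classes had at least 20 cells in each library, the least being the 20 oligodendrocyte precursors of library B. The gates took 7201 of 14773 kept cells (48.7%), 6917 cells met none, and 655 met gates of several families and were left out. Markers not used in a class's gate were all higher than in the other gated cells, in both libraries, for 9 of the 13 classes. The other 4 were the dividing EOMES progenitors (5 of 7 markers higher), the non-dividing EOMES progenitors (4 of 5), the neurons gated on deep-layer genes (4 of 6, with CRYM and NR4A2 not higher) and the other excitatory neurons (5 of 6). Endothelial cells made up 1.04% of library A and 6.79% of library B. Levels below are CPM, the UMIs of a gene over all UMIs summed in a class, scaled in the usual way, and are given for library A and then library B, and the mean ± SD of a log2 ratio is over these 2 libraries.

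FABP7 was the most abundant transcript of the glial classes. Non-dividing cells with a UMI of HOPX and of CLU, called HOPX and CLU glia (290 and 148 cells), held 38819 and 42606 CPM. That was 3.88% and 4.26% of all their UMIs, and FABP7 ranked 1 among all genes there in both libraries. The glia gated on LIFR, CITED1 and BBOX1 followed at 30304 and 31684 CPM, and dividing HOPX radial glia stood at 17119 and 18196 CPM. Each of these classes was apart from the next in both libraries. FABP7 was also rank 1 in EGFR and OLIG1 gliogenic progenitors, at 11981 and 13989 CPM, and in PDGFRA and SOX10 oligodendrocyte precursors, at 11051 and 9479 CPM. The gates of both these classes, and of the LIFR, CITED1 and BBOX1 glia, set no condition on division. These classes can therefore hold dividing cells, unlike the HOPX and CLU glia. Across the whole libraries FABP7 took 1.16% and 1.31% of all UMIs and was found in 98.2% and 99.4% of cells.

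**Figure D1:**
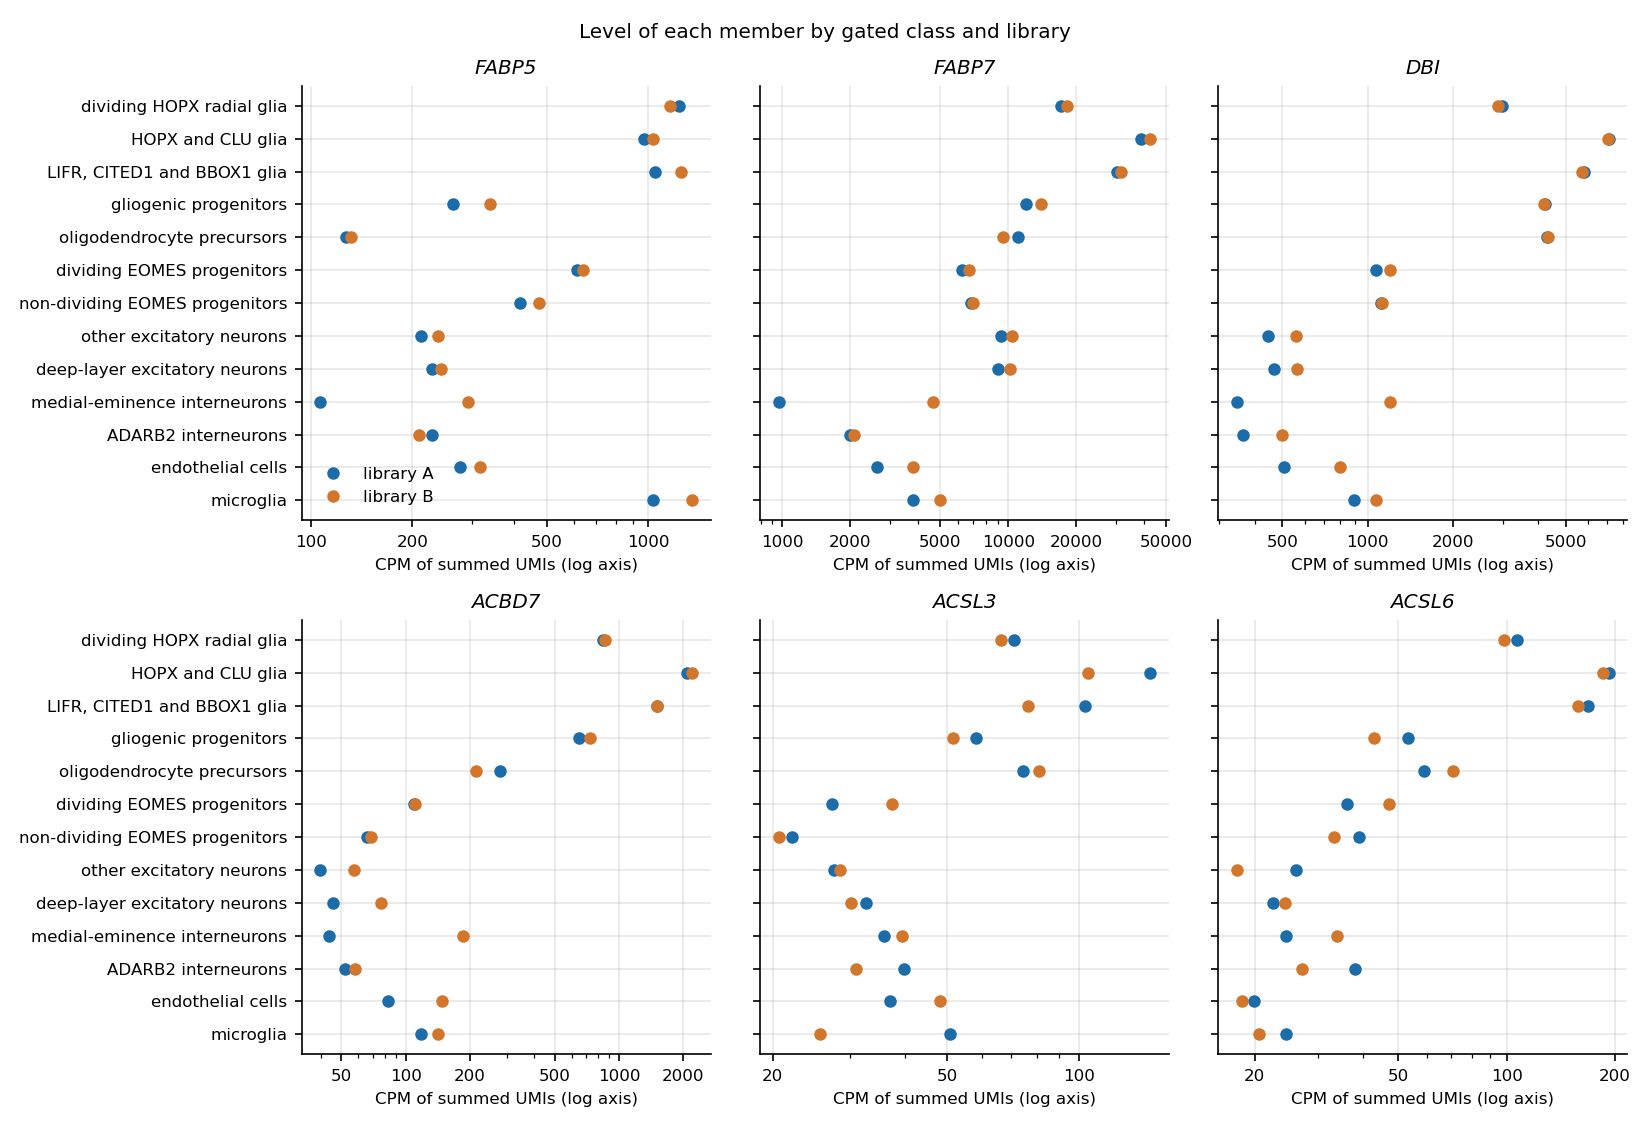
CPM of summed UMIs of each gene (log axes, each panel with its own range) in the 13 gated classes, one point per library. FABP7, DBI, ACBD7, ACSL3 and ACSL6 were highest in HOPX and CLU glia, whereas for FABP5 the dividing HOPX radial glia, microglia and LIFR, CITED1 and BBOX1 glia overlapped at the top (microglia stood at 614 and 817 CPM with cells thinned to 1500 UMIs), and the libraries lay far apart in medial-eminence interneurons.

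Excitatory neurons carried more FABP7 than the cells gated on EOMES, a gene of the transit-amplifying cells of the excitatory lineage. The non-dividing EOMES class had no UMI of 6 division genes, and its cells were not shown to be progenitors. Its summed CPM of NEUROD2, NEUROD6, SLC17A7 and SLA, genes of excitatory neurons, was 386 and 365, against 103 and 98.5 in the dividing class. Excitatory neurons with none of the deep-layer genes held 9313 and 10390 CPM of FABP7, and those with deep-layer genes held 9054 and 10223 CPM. The libraries of these neuron classes overlapped each other and those of the oligodendrocyte precursors. Non-dividing EOMES progenitors held 6872 and 6949 CPM, and dividing ones 6268 and 6675 CPM. Against non-dividing EOMES progenitors, the other excitatory neurons were 1.42-fold higher in FABP7 (log2 ratio of CPM 0.51 ± 0.10, SD, n = 2), while DBI lay at a log2 ratio of -1.16 ± 0.22, FABP5 at -0.98 ± 0.01 and ACBD7 at -0.50 ± 0.32. Of the 4 binding proteins, FABP7 was thus the one with a higher level in the neurons.

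The glial RNA carried by these neurons was measured beside that result. The summed CPM of HOPX, PTPRZ1, SLC1A3 and PAX6, genes of radial glia, was 367 and 333 in the other excitatory neurons, 428 and 365 in non-dividing EOMES progenitors and 4230 and 3980 in HOPX and CLU glia. In neurons with no UMI of those 4 genes (156 and 88 cells), FABP7 stood at 9988 and 11342 CPM. In non-dividing EOMES progenitors chosen the same way (325 and 158 cells), it stood at 6184 and 6858 CPM. Among these cells the neurons were again above the non-dividing EOMES class in both libraries. Glial FABP7 RNA can lie in a cell with no UMI of the 4 genes, and its part in these levels was not tested.

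Among the 13 classes, interneurons had the lowest mean FABP7. ADARB2 interneurons held 1993 and 2074 CPM (370 and 99 cells). Interneurons gated on NXPH1 or LHX6, genes of the medial ganglionic eminence, held 961 CPM in library A (238 cells) and 4664 CPM in library B (51 cells), so the libraries lay far apart. With LHX6 required, FABP7 was 743 and 4294 CPM (158 and 30 cells). In library B, 73.6% of the FABP7 UMIs of that class, with each cell thinned to 1500 UMIs, lay in the 10% of its cells with the most, against 58.7% in library A. The glial marker sum was 100 and 456 CPM in the 2 libraries. Without the cells that held a UMI of those markers, FABP7 was 510 CPM in library A (211 cells) and 693 CPM in library B (38 cells). DBI moved in the same way, from 346 and 1204 CPM to 215 and 342 CPM, and ACBD7 from 43.7 and 186 CPM to 19.4 and 38.0 CPM. The inhibitory neurons gated on MEIS2, too few to compare (24 and 12 cells) and with 3 of 6 markers higher, held 7583 and 6485 CPM of FABP7.

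Per cell, the class medians ranged widely. After thinning to 1500 UMIs, a HOPX and CLU glial cell held a median of 59 and 62.5 FABP7 UMIs, and the 10th to 90th percentiles ran from 35.9 to 83.1 in library A and from 31.7 to 92.6 in library B. The median was 23 and 22 in dividing HOPX radial glia, 13 and 15 in the other excitatory neurons and 9 and 9 in dividing EOMES progenitors. In medial-eminence interneurons it was 0 and 1, and in ADARB2 interneurons 2 and 2. Free RNA can give a UMI in a cell that does not express a gene. The lowest share of cells with an FABP7 UMI among the 13 classes was in medial-eminence interneurons, at 47.5% and 68.6% thinned and 70.6% and 90.2% unthinned, with median depths of 3206 and 2815 UMIs. In endothelial cells, at median depths of 2402 and 1988 UMIs, the thinned share was 93.1% and 97.1% (99.0% and 99.1% unthinned). Detection alone thus says little about FABP7. The amount per cell set HOPX and CLU glia apart from most classes, but many other classes overlapped. In library A the 10th to 90th percentiles ran from 8 to 42.5 in dividing HOPX radial glia and from 4 to 26 in the other excitatory neurons.

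**Figure D2:**
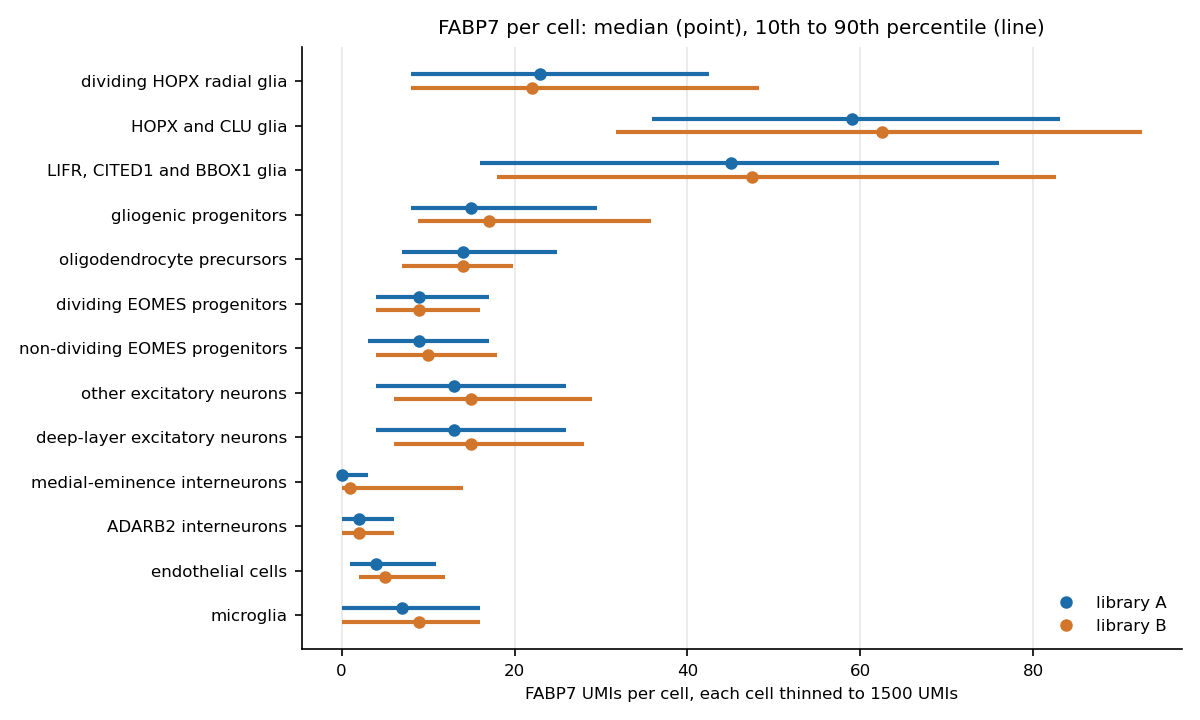
FABP7 UMIs per cell after thinning each cell to 1500 UMIs, with the median as a point and the 10th to 90th percentile as a line, for 13 classes and both libraries. The medians of HOPX and CLU glia, 59 and 62.5, lay above the 90th percentile of every other class except the LIFR, CITED1 and BBOX1 glia.

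FABP5 followed another order. It was highest in dividing HOPX radial glia, at 1235 and 1159 CPM, in microglia, at 1034 and 1347 CPM, and in LIFR, CITED1 and BBOX1 glia, at 1046 and 1250 CPM, and these overlapped. HOPX and CLU glia, at the top for FABP7, came next at 972 and 1031 CPM. Microglia did not keep this place with each cell thinned to 1500 UMIs: they held 614 and 817 CPM, below HOPX and CLU glia at 986 and 1027 CPM. Dividing EOMES progenitors held 615 and 641 CPM and non-dividing ones 416 and 474 CPM, both above the other excitatory neurons at 212 and 239 CPM. FABP5 was thus lower in these neurons than in either EOMES class, whereas FABP7 was higher. Against dividing HOPX radial glia both genes were lower in the neurons, FABP7 at 9313 and 10390 CPM against 17119 and 18196 CPM.

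Oligodendrocyte precursors were among the classes with the least FABP5, at 127 and 132 CPM, and overlapped the medial-eminence interneurons at 107 and 293 CPM. Without the cells that held a glial marker UMI (211 and 38 cells left), those interneurons held 86.7 and 56.9 CPM, below the precursors in both libraries. The precursor values here and in the ratios below rest on only 41 and 13 FABP5 UMIs. With thinned cells the precursors held 92.0 and 167 CPM. The level in oligodendrocyte precursors was 7.75-fold below that of HOPX and CLU glia (log2 ratio -2.95 ± 0.02, SD, n = 2). Against the gliogenic progenitors, at 263 and 340 CPM, the log2 ratio was -1.21 ± 0.23. In thinned cells FABP5 was found in 13.8% and 25.0% of oligodendrocyte precursors (36.2% and 50.0% unthinned) and in 76.4% and 67.2% of dividing HOPX radial glia (97.2% and 87.5% unthinned).

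In microglia FABP5 was uneven from cell to cell. A UMI was found in 42.8% and 43.2% of thinned cells (65.8% and 50.7% unthinned), and the 10% of cells with the most held 57.9% and 62.6% of the FABP5 UMIs. One cell held 106 of the 509 FABP5 UMIs of library A and one held 119 of the 525 of library B. Leaving out microglia with a UMI of the 4 glial markers moved FABP5 to 1315 and 2194 CPM (68 and 58 cells), but those 2 cells were among the ones kept, and with cells thinned to 1500 UMIs it stood at 667 and 1310 CPM. FABP7 went from 3779 and 4978 CPM to 1959 and 2608 CPM in the same cells. Among the classes too small to compare, FABP5 was 2016 and 2324 CPM in CRYAB cells (13 and 13 cells) and 1398 and 1870 CPM in mural cells and fibroblasts (24 and 10 cells).

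The acyl-CoA binding protein DBI was a gene of the whole glial lineage, precursors of oligodendrocytes included. HOPX and CLU glia held 7096 and 7032 CPM, LIFR, CITED1 and BBOX1 glia 5792 and 5702 CPM, oligodendrocyte precursors 4313 and 4320 CPM and gliogenic progenitors 4236 and 4193 CPM. Dividing HOPX radial glia came below these, at 2989 and 2885 CPM. The EOMES progenitors were lower, with 1071 and 1202 CPM when dividing and 1115 and 1124 CPM when not. The other excitatory neurons held 446 and 560 CPM, 14.1-fold below HOPX and CLU glia (log2 ratio for glia over neurons 3.82 ± 0.24, SD, n = 2). DBI was found in 99.7% and 100% of thinned HOPX and CLU glia (100% and 100% unthinned) and in 46.2% and 54.4% of thinned other excitatory neurons (66.4% and 72.3% unthinned). In ADARB2 interneurons, at median depths of 2672 and 2389 UMIs, the share was 38.1% and 41.4% thinned (58.6% and 63.6% unthinned), and in medial-eminence interneurons 30.3% and 47.1% thinned (51.3% and 62.7% unthinned).

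Its relative ACBD7 had the widest range of the 6 genes, 44.3-fold from the highest class mean to the lowest. HOPX and CLU glia held 2091 and 2198 CPM, LIFR, CITED1 and BBOX1 glia 1502 and 1501 CPM, dividing HOPX radial glia 838 and 857 CPM and gliogenic progenitors 651 and 734 CPM. Oligodendrocyte precursors held 276 and 212 CPM, which is where ACBD7 and DBI parted. Against HOPX and CLU glia, the log2 ratio of oligodendrocyte precursors was -3.15 ± 0.32 for ACBD7 and -0.71 ± 0.01 for DBI (SD, n = 2). The other excitatory neurons held 39.8 and 57.0 CPM, overlapping the ADARB2 interneurons at 52.2 and 58.0 CPM. The thinned share of cells with an ACBD7 UMI was 91.0% and 83.8% in HOPX and CLU glia (96.9% and 94.6% unthinned), 31.0% and 25.0% in oligodendrocyte precursors (60.3% and 60.0%) and 6.0% and 7.7% in the other excitatory neurons (11.5% and 12.3%).

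Set against FABP7 in the same cells, the carriers fell into different proportions in different lineages. In HOPX and CLU glia there were 18.3 and 16.5 DBI UMIs for every 100 FABP7 UMIs, near the values in non-dividing EOMES progenitors at 16.2 and 16.2. Gliogenic progenitors had 35.4 and 30.0 and oligodendrocyte precursors 39.0 and 45.6. DBI was thus higher relative to FABP7 there, though the CPM of both genes was below that of HOPX and CLU glia. Medial-eminence interneurons, at 36.0 and 25.8, overlapped the gliogenic progenitors, and microglia had 23.7 and 21.5. The excitatory neuron classes were lowest, the other excitatory neurons at 4.79 and 5.39. ACBD7 stood at 5.39 and 5.16 per 100 FABP7 UMIs in HOPX and CLU glia, at 5.43 and 5.24 in gliogenic progenitors and at 2.49 and 2.24 in oligodendrocyte precursors. FABP5 ran from 1.15 and 1.39 in oligodendrocyte precursors through 7.21 and 6.37 in dividing HOPX radial glia to 27.4 and 27.0 in microglia, against 2.51 and 2.42 in HOPX and CLU glia. With cells thinned to 1500 UMIs the microglial value was 11.5 and 13.3, near the 12.7 of medial-eminence interneurons in library A and the 11.3 and 9.54 of ADARB2 interneurons.

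**Figure D3:**
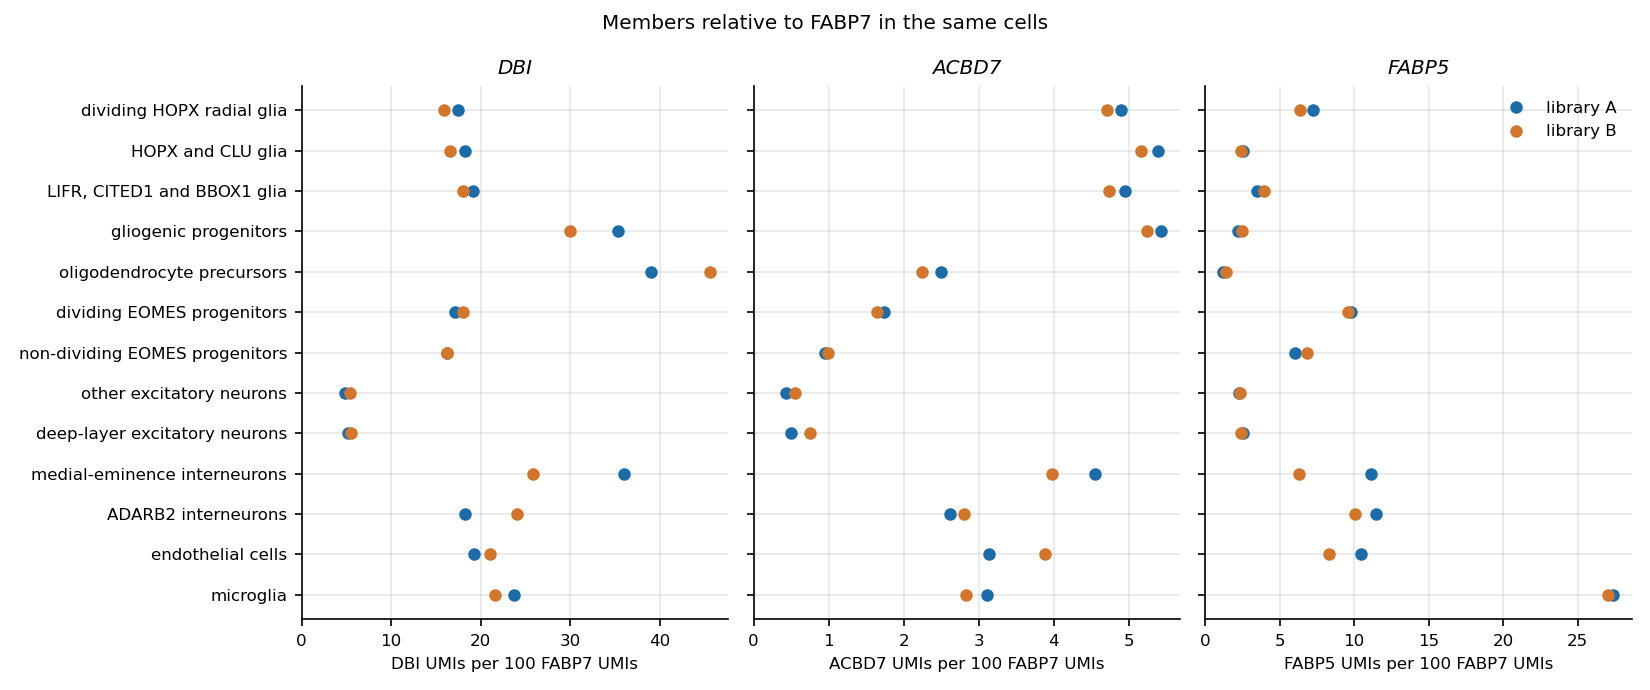
UMIs of DBI, ACBD7 and FABP5 for every 100 FABP7 UMIs in the same class, one point per library, linear axes from 0. DBI was 39.0 and 45.6 in oligodendrocyte precursors and lowest in the excitatory neurons. FABP5 was highest in microglia (27.4 and 27.0), a value that was 11.5 and 13.3 with cells thinned to 1500 UMIs.

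The synthetases were much sparser than the carriers. ACSL6, an isoform of brain that favours polyunsaturated fatty acids, followed the glial order: 192 and 186 CPM in HOPX and CLU glia, 168 and 158 CPM in LIFR, CITED1 and BBOX1 glia and 107 and 98.6 CPM in dividing HOPX radial glia. Oligodendrocyte precursors held 58.8 and 70.8 CPM, the other excitatory neurons 25.9 and 17.8 CPM and endothelial cells 19.9 and 18.5 CPM. The glia were 8.78-fold above the neurons (log2 ratio 3.13 ± 0.35, SD, n = 2). ACSL3, an enzyme of the endoplasmic reticulum and of lipid droplets, had the narrowest range, 5.83-fold between class means. Its level was 145 and 104 CPM in HOPX and CLU glia, 74.3 and 80.9 CPM in oligodendrocyte precursors and 22.2 and 20.6 CPM in non-dividing EOMES progenitors. In oligodendrocyte precursors these values rest on 24 and 8 UMIs and are not told apart from dividing HOPX radial glia, at 71.0 and 66.2 CPM, since with thinned cells library A had 92.0 CPM in the precursors and 105 CPM in the radial glia. In thinned cells an ACSL3 UMI was found in 22.8% and 13.5% of HOPX and CLU glia (52.8% and 33.1% unthinned).

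Within cells that carried HOPX, an outer radial glia gene, the levels moved with division and with CLU, an astrocyte gene. This split was made after the levels had been seen. FABP7 was 13282 and 14279 CPM in dividing cells with no CLU UMI, 22290 and 22703 CPM in non-dividing cells with no CLU UMI, 23621 and 24065 CPM in dividing cells with one, and 38819 and 42606 CPM in non-dividing cells with one. DBI ran from 2332 and 2352 CPM in the first of these to 7096 and 7032 CPM in the last, and ACBD7 from 468 and 535 CPM to 2091 and 2198 CPM. ACSL6 ran from 78.7 and 90.9 CPM to 192 and 186 CPM, and ACSL3 from 56.9 and 41.1 CPM to 145 and 104 CPM. For FABP7, DBI and ACBD7, cells with a CLU UMI were above those without in both libraries, whether or not they divided. FABP5 did not follow them. It was 1372 and 1214 CPM in dividing and 1076 and 1272 CPM in non-dividing cells with no CLU UMI, and 1003 and 1076 CPM in dividing and 972 and 1031 CPM in non-dividing cells with one. Cells with a CLU UMI were also deeper: the median was 5378 and 4498 UMIs in non-dividing cells with one and 3690 and 2970 UMIs in those without. The part of depth in these differences was not tested.

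**Figure D4:**
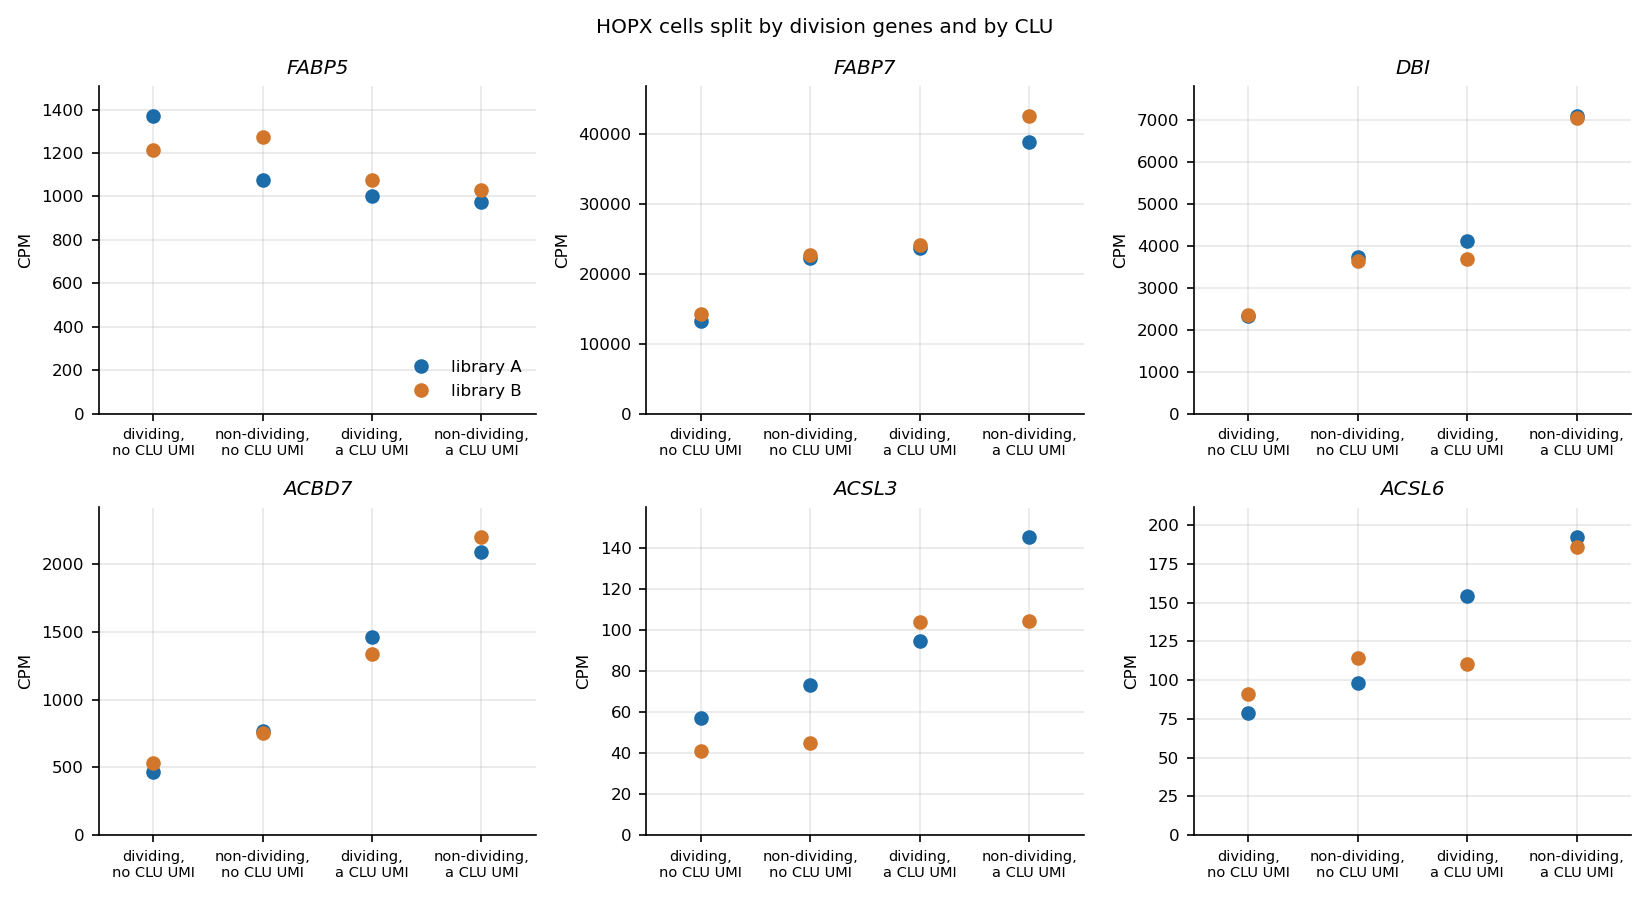
CPM of the 6 genes in HOPX cells split by division and by a CLU UMI, one point per library, linear axes from 0. All but FABP5 were lowest in dividing cells with no CLU UMI and highest in non-dividing cells with one, whereas FABP5 was lowest in the latter.

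Single cells were compared within a class. Over thinned HOPX and CLU glia, log2 levels of FABP7 and DBI had a Pearson r of 0.47 in library A and 0.57 in library B, and FABP7 and ACBD7 had 0.40 and 0.44. FABP7 and FABP5 had the weak values -0.28 and -0.14, and 0.19 and 0.11 in dividing HOPX radial glia. In oligodendrocyte precursors FABP7 and ACBD7 had -0.01 and 0.20. These are across cells of 1 library, which share its preparation, and are given without a test.

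Over the 26 points made by 13 classes and 2 libraries, DBI and ACBD7 had the most similar patterns of the 15 pairs of the set (Pearson r of log2 CPM 0.93), and FABP5 and ACSL3 the least (0.34). The points share libraries and glial classes, so r is a description. Among 10670 genes, the named ones closest to FABP7 were SFRP1, a secreted Wnt antagonist of radial glia (0.92), WWC1 (0.91) and SMPDL3A (0.91). Closest to DBI were CMTM5 and the glial adhesion protein HEPACAM (both 0.97). ACBD7 was nearest to the glutamate transporter SLC1A3 (0.98) and also near the acyl-CoA synthetase ACSBG1 (0.96). FABP5 was nearest to podoplanin, PDPN (0.94), ACSL3 to the stearoyl-CoA desaturase SCD (0.92) and ACSL6 to EMID1 and TSPAN33 (both 0.96).

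The other genes of fatty acid handling, 87 names in 10 lists, were not part of the choice of the 6 and were tested with edgeR's quasi-likelihood test on UMI sums per class and library, with the library as a block and Benjamini-Hochberg adjustment over all genes tested. Such p-values rest on how far class differences varied between these 2 libraries, which may be technical, in the gene itself and as dispersion shared over genes. The weight of these parts differed between the comparisons. In those after the first, the p-values were about as small as a normal distribution gives for the fold change and SE. The shared part thus carried them, and p-values cannot be set against each other across comparisons. In HOPX and CLU glia against the other excitatory neurons, 53 list genes could be tested, and 28 were higher and 7 lower. Of all 9550 genes tested, 51.6% were called, 27.2% higher and 24.5% lower. The median log2 fold change was 0.85 over the lists and 0.01 over all genes. The oxidation list had 12 genes higher and 1 lower of 17 tested, elongation and desaturation 5 and 1 of 10, and synthesis 3 and 0 of 5. Lists nearer to the 6 genes did not share this lean. The other acyl-CoA synthetases had 2 higher and 2 lower of 6 (median 0.16). The other ACBD genes had 0 and 1 of 3 (0.07), the acyl-CoA thioesterases 0 and 1 of 3 (-0.35) and the FABP family relatives 2 and 1 of 3 (1.23). Among the oxidation genes that were higher were CPT1A, the gate of fatty acids into mitochondria, and ETFA, an electron acceptor of the dehydrogenases. ETFA stood at 139 and 184 CPM in glia and 32.0 and 23.2 CPM in neurons (log2 fold change 2.35, SE 0.21, adjusted p = 4.4e-07).

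In the same comparison the lipase of monoacylglycerols MGLL was higher, at 214 and 178 CPM in glia and 5.19 and 8.91 CPM in neurons (log2 fold change 4.89, SE 0.25, adjusted p = 1.8e-09). So was SCD, which makes monounsaturated fatty acids, at 203 and 197 CPM against 20.8 and 23.2 CPM (3.16, SE 0.18, adjusted p = 6.2e-09). ACSBG1, an acyl-CoA synthetase of glia, was at 62.1 and 53.6 CPM against 0.865 and 1.78 CPM, a ratio of 51.1 (exact 95% interval 13.9 to 427, which covers counting error only). SREBF1 and FASN, of fatty acid synthesis, were higher too (log2 fold changes 3.22 and 1.37). Lower in glia were CRABP1, a retinoic acid binding relative of the FABPs (-5.13, SE 0.33, adjusted p = 1.6e-08), and the thioesterase ACOT7, which cleaves acyl-CoA (-4.00, SE 0.33, adjusted p = 2.1e-07). The 6 genes had log2 ratios of CPM of 2.15 (FABP5), 2.05 (FABP7), 3.82 (DBI), 5.49 (ACBD7), 2.13 (ACSL3) and 3.13 (ACSL6) here. DESeq2 called 22 of the 53 list genes, where it called 21.3% of all genes. On thinned cells edgeR called 23 of 36, where it called 48.7% of all genes.

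**Figure D5:**
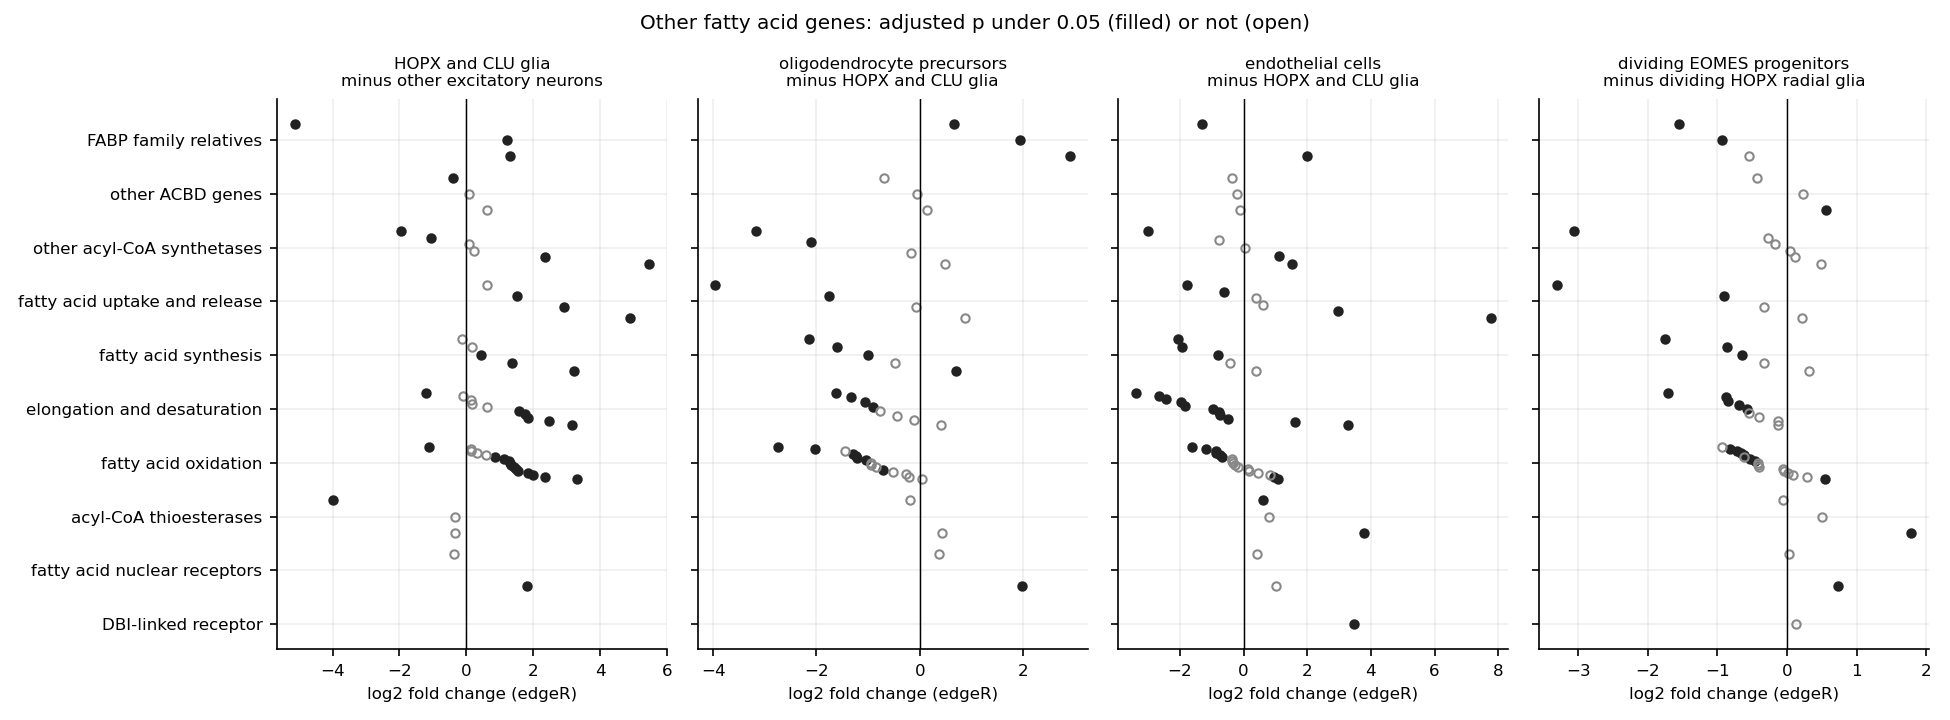
Log2 fold changes of the tested list genes, by list, in the 4 comparisons, one point per gene, with genes called by edgeR at adjusted p under 0.05 marked apart from those not called. In HOPX and CLU glia against the other excitatory neurons 28 were higher and 7 lower, and in oligodendrocyte precursors against those glia 5 were higher and 18 lower.

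Oligodendrocyte precursors against HOPX and CLU glia gave the opposite lean, with 5 list genes higher and 18 lower of 46 tested, where 29.1% of all 8019 genes were called (13.4% higher and 15.7% lower). The same sums of HOPX and CLU glia enter both comparisons, so the leans are not independent. The median was -0.70 over the lists and -0.03 over all genes. The FABP family relatives went the other way, with 3 higher and 0 lower of 3 tested (median 1.95). The other ACBD genes (3 tested) and the acyl-CoA thioesterases (2 tested) had 0 called. In the oxidation list 7 of 15 were lower and 0 higher, ECI1 among them (12.4 and 30.3 CPM against 101 and 115 CPM, log2 fold change -2.74, SE 0.46, adjusted p = 4.5e-08). MGLL was lower (-3.96, SE 0.41, adjusted p = 1.5e-20) and so was SCD (-1.62, SE 0.28, adjusted p = 5.1e-08). The DESeq2 test called 4 of the 46 list genes here, where it called 8.22% of all genes, and edgeR on thinned cells 12 of 28, where it called 24.5% of all genes. For ACSBG1 (3 UMIs against 135) the DESeq2 log2 fold change was -3.08 with adjusted p = 0.13 (edgeR -3.16, adjusted p = 7.8e-06). For CRABP1 it was 2.66 with adjusted p = 0.38 (edgeR 2.90, adjusted p = 1.6e-05). The library B sum rests on 20 cells. The precursors were gated with no condition on division, and the part of division in this comparison was not tested.

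In endothelial cells against HOPX and CLU glia, 12 list genes were higher and 22 lower of 55, where 44.0% of all 9580 genes were called (23.2% higher and 20.8% lower). MFSD2A, which carries docosahexaenoic acid across the blood-brain barrier, was at 347 and 291 CPM against 0.634 and 2.90 CPM (adjusted p = 3.0e-96). Only 3 of its UMIs lay in the glia, and the ratio of CPM was 233 with an exact 95% counting interval of 78.9 to 1133. TSPO, the mitochondrial protein that DBI binds, was at 45.5 and 65.3 CPM against 6.34 and 1.45 CPM (log2 fold change 3.48, SE 0.44, adjusted p = 4.8e-14), and PLIN2, a coat protein of lipid droplets, was higher too (2.95, SE 0.24). The elongation and desaturation list had 2 genes higher and 9 lower of 11. Its desaturases FADS1 (-3.38, SE 0.42) and FADS2 (-2.43, SE 0.23) and its elongase ELOVL2 (-2.65, SE 0.28), which make long polyunsaturated fatty acids, were lower. FASN (-1.92, SE 0.24) and ACADVL, the dehydrogenase of very long chains in oxidation (-1.62, SE 0.20), were lower too. With DESeq2 14 of 55 list genes were called, against 17.5% of all genes, and with edgeR on thinned cells 20 of 40, against 39.0% of all genes. In these cells DBI held 506 and 799 CPM, ACBD7 82.5 and 148 CPM and FABP7 2631 and 3802 CPM, beside a glial marker sum of 714 and 962 CPM. Without the cells that held a UMI of those markers (16 and 53 cells left), DBI stood at 537 and 565 CPM, ACBD7 at 102 and 113 CPM and FABP7 at 3787 and 3660 CPM.

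In dividing EOMES progenitors against dividing HOPX radial glia, 4 list genes were higher and 19 lower of 53, where 27.8% of all 10266 genes were called (12.7% higher and 15.1% lower). MGLL was at 10.4 and 18.2 CPM against 132 and 128 CPM (log2 fold change -3.31, SE 0.21, adjusted p = 1.3e-53), SCD was lower (-1.70, SE 0.20, adjusted p = 1.1e-16), and so was FABP3, the relative of FABP5 and FABP7 known from heart muscle (19.2 and 17.1 CPM against 49.5 and 70.1 CPM, -1.55, SE 0.24, adjusted p = 3.5e-09). By DESeq2 4 of these 53 list genes were called, against 6.23% of all genes, and by edgeR on thinned cells 9 of 30, against 17.4% of all genes. The 6 genes had log2 ratios of CPM of -0.93 (FABP5), -1.45 (FABP7), -1.37 (DBI), -2.95 (ACBD7), -1.10 (ACSL3) and -1.32 (ACSL6) in this comparison, with ACBD7 at 109 and 110 CPM in the EOMES progenitors.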

How the data were processed

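The values are raw UMI counts (whole numbers, not normalized) in 1 matrix that the authors deposited for both samples. The submitters' processing notes name Cell Ranger without a version. The genome build is not given in the sources used here, so no positions are printed. The least UMIs of any deposited cell were 1501. Of 14787 cells, 14 with under 500 genes or over 10% of UMIs from mitochondrial genes were removed.

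Cells were gated on raw UMIs. Dividing cells had 3 or more UMIs over 6 division genes. Cells meeting gates of several families were left out. A cell meeting several gates of the same family took the first in a fixed order. In the glia this was oligodendrocyte precursors, gliogenic progenitors, LIFR, CITED1 and BBOX1 glia, CRYAB cells, dividing HOPX radial glia, then HOPX and CLU glia. Scrublet (scanpy 1.11.5) scored doublets in each library, and the 485 cells with a score above 0.2 were left out as an alternative. Counts were summed per class and library and tested with edgeR 4.0.16 (TMM, filterByExpr) in R 4.3.3, with DESeq2 1.42.0 as an alternative. The library was the block because both classes of a comparison come from the same 2 libraries. SE is the log2 fold change divided by the square root of edgeR's F statistic. Shares came from cells as deposited and from cells thinned to 1500 UMIs. Likeness used log2(CPM + 10) over genes with 20 CPM or more in a class.

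The 6 genes, the lists, the gates and the tests were chosen with earlier results of these data known. Named list genes were the 8 called genes with the largest fold change and the same sign in both libraries, and the gene with the smallest adjusted p of each list. Of 87 list names, 83 had a UMI. The values of 1 named list gene are not reported here. Removing cells with glial marker UMIs, the LHX6 gate, the HOPX split and thinned values for FABP5 in microglia and for ratios to FABP7 were chosen after seeing the data.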

Additional observations from a re-analysis of the deposited data

How the results depend on the processing

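The 24 log2 ratios of the 6 genes in the 4 comparisons kept their sign in all 144 alternative values (stricter gates, cells of several families kept, doublet scores above 0.2 left out, thinning, and each library alone). The largest shift was ACSL6 in dividing EOMES progenitors against dividing HOPX radial glia, -1.32 as reported and -2.38 after thinning. The number of list genes called by edgeR was 35 in HOPX and CLU glia against the other excitatory neurons, 23 in oligodendrocyte precursors, 34 in endothelial cells and 23 in dividing EOMES progenitors. With the DESeq2 Wald test these were 22, 4, 14 and 4, and with every cell thinned to 1500 UMIs they were 23, 12, 20 and 9, with fewer genes tested after thinning. Calls over all genes also went down, from 4929, 2331, 4212 and 2852 to 2032, 659, 1678 and 640 with DESeq2 and to 3087, 902, 2555 and 926 after thinning. The cause of the lower DESeq2 counts was not tested. Without the replicate block on library they were 36, 23, 35 and 20. The named list genes gave 52 results, each a gene in 1 comparison, so a gene can count more than once. Of 399 alternative values for these, 33 lost the call, 3 gained it and 1 changed sign: CRABP1 in dividing EOMES progenitors, which went to 0.16 with stricter gates. With 1 library left out no residual degrees of freedom remain, so the counts of calls have no such value. Depth limits ACSL3 and ACSL6 most: in thinned HOPX and CLU glia an ACSL6 UMI was found in 26.9% and 23.0% of cells (66.2% and 54.7% unthinned).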
